A study of Homo sapiens with 6 samples.

Results

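The genes described here are 54 genes of DNA replication and S phase, chosen by name: the subunits of the origin recognition complex, the MCM helicase and its loaders and activators, the replicative polymerases, the sliding clamp and its loader, the enzymes that supply deoxynucleotides, and the cyclin E and E2F genes that control entry into S phase. All 54 were found among 74852 genes listed, and all were among the 18717 genes with enough reads to be tested (10 or more normalized counts on average). PolyA-selected RNA was sequenced from MDA-MB-231, a human triple-negative breast cancer (TNBC) cell line with mesenchymal traits. The cells were transfected 2 times with a control siRNA pool (si-CTRL) or a pool that targets NEK2 (si-NEK2). NEK2 is a mitotic kinase that separates centrosomes. The sample labels give a harvest 24 h after the second transfection, whereas the methods of the study count the harvest time from transfection, without a second round. Each group had 3 libraries. With a single pool per group, loss of NEK2 and other effects of the si-NEK2 pool cannot be told apart. Whether both groups were prepared in one batch is not stated in the sources used here, so that a batch and the treatment cannot be told apart either.

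Replication is prepared in G1, when the origin recognition complex, CDC6 and CDT1 load the MCM ring on DNA. At the start of S phase the CDC7 kinase, with its activator DBF4, and cyclin E with CDK2 turn the loaded ring into an active helicase by adding CDC45 and the GINS complex. Many of these genes are transcribed by E2F factors once the RB protein is inactivated, which is why they serve as markers of proliferating cells.

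The reads recovered from the deposited gene values summed to between 52625492 and 87454509 per library. Reads not assigned to a gene are not in these sums, and reads in overlapping genes may be counted more than once. A value in normalized counts is the number of reads divided by the size factor of the library. NEK2 itself had 3702, 3323 and 3290 normalized counts in si-CTRL libraries and 284, 362 and 388 in si-NEK2 libraries, where 10.0% of its level was left. The markers VIM, CD44, CAV1, AXL and MSN, which are abundant in MDA-MB-231 cells, each had at least 29767 normalized counts in every library. Of 8 luminal breast cancer markers, ESR1, PGR, TFF1, EPCAM and CDH1 had at most 15.2 normalized counts in any library. The summed level of the 8 markers was between 2619 and 2928 normalized counts in si-CTRL and between 4002 and 4619 in si-NEK2 libraries. Most of it came from FOXA1 and KRT19, both higher in si-NEK2 libraries, and the span of KRT19 overlaps 5 other expressed genes. GATA3 went the other way, with means of 427 in si-CTRL and 321 in si-NEK2 libraries, and its groups overlapped. ERBB2, the gene of HER2, had means of 2822 in si-CTRL and 4020 in si-NEK2 libraries. The part of these markers in the results was not tested.

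Silencing of NEK2 was accompanied by a deep fall of CCNE1 and UHRF1, a clear rise of GMNN and RPA1, and small changes in both directions for most of the replication machinery. A gene is said here to have risen or fallen when limma gave a p of 0.05 or less after Benjamini-Hochberg adjustment over all genes tested. By this test 19 of the 54 genes rose and 11 fell, that is 55.6% passed, against 43.1% of all genes tested. Of all genes tested, 21.8% rose and 21.3% fell. Among 11751 genes whose mean lay within the range of the 54 genes, 28.6% rose and 22.7% fell, so that the share that rose among the 54 (35.2%) lay above both and the share that fell (20.4%) below both with the deposited scaling. The share that rose lay below that of all genes tested under each of the other 3 scalings tried in limma, as given further on. No test of these shares was made. In these bulk RNA samples, a change in the share of cells in S phase and a change in RNA per cell cannot be told apart.

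Few of the changes were large. At the thresholds of the study (unadjusted p up to 0.05, and 1.5-fold or more), 2 genes were regulated up and 2 down, against 8.23% and 14.3% of all genes tested. The log2 fold change stayed within a fold of 1.25 in either direction for 39 of the 54 genes (72.2%), compared with 49.7% of all genes tested and 55.9% of genes with a mean in the same range. The median log2 fold change was 0.0643 for the 54 genes and 0.0119 for all genes tested. The groups did not overlap for 21 genes that were higher and 13 that were lower in si-NEK2 libraries, while 28.2% and 26.9% of all genes tested were separated in this way.

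**Figure D1:**
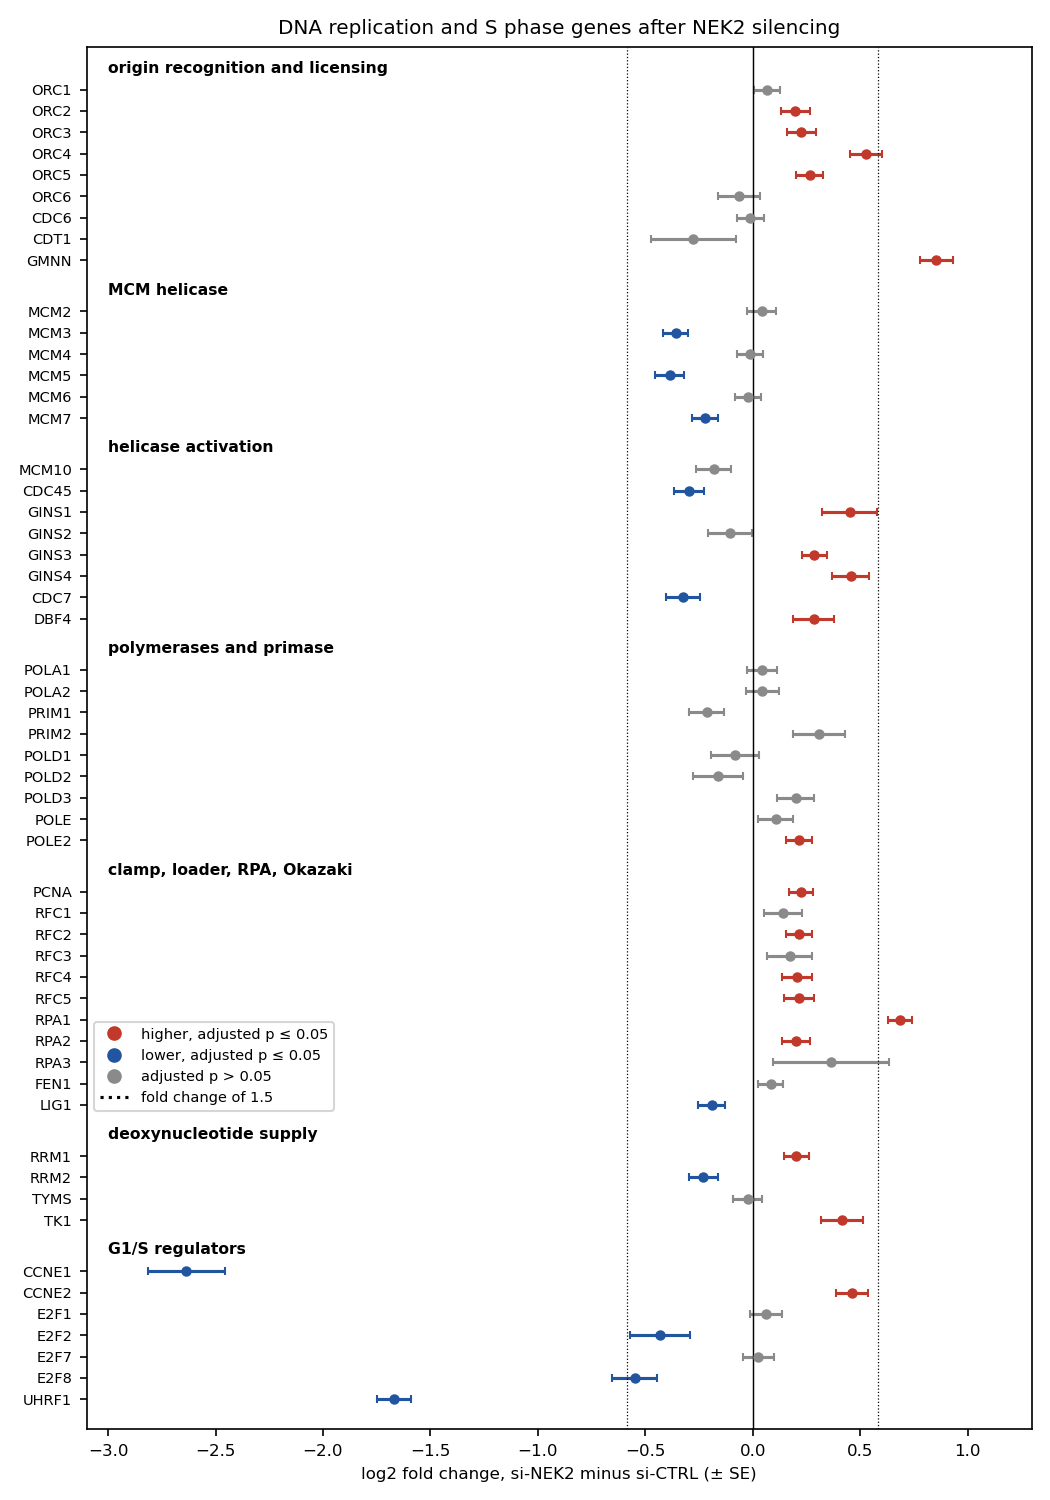
Log2 fold change of the 54 genes in si-NEK2 against si-CTRL libraries (x axis), with standard errors as bars, ordered by role; red points are genes that rose, blue points genes that fell and grey points genes with an adjusted p over 0.05, and dotted lines mark a fold change of 1.5. CCNE1 (-2.64) and UHRF1 (-1.67) lie far to the left, GMNN (0.86) and RPA1 (0.69) to the right, and most points lie between the dotted lines.

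**Figure D2:**
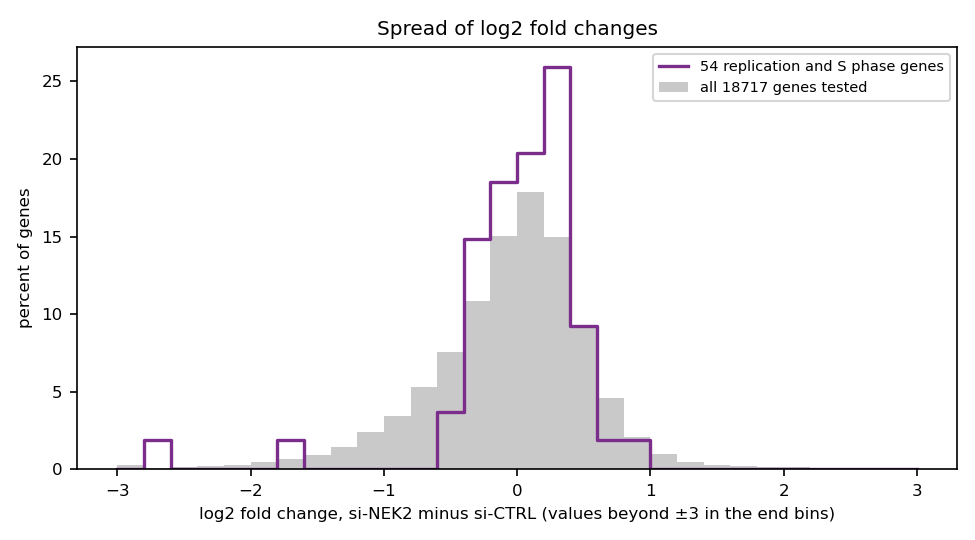
Percent of genes (y axis) by log2 fold change in si-NEK2 against si-CTRL libraries (x axis, bins of 0.2) for all 18717 genes tested (grey bars) and the 54 replication and S phase genes (line). The 54 genes are gathered closer to 0, apart from CCNE1 and UHRF1 on the left.

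The number of small rises depended on how the libraries were scaled. After scaling to the upper quartile, 9 of the 54 genes rose (16.7%) and 13 fell (24.1%), against 17.5% and 24.6% of all genes tested. After quantile normalization 8 rose (14.8%) and 11 fell (20.4%), against 21.1% and 19.0%. After scaling each library to an equal total 6 rose (11.1%) and 13 fell (24.1%), against 13.8% and 28.1%. The share of the 54 genes that rose was thus above that of all genes with the deposited scaling and below it with each of these 3. Equal totals moved the median of all genes to -0.115, and the median of the 54 genes lay 0.0507 above that, with 32 of them above it. With quantile normalization the order turned, with a median of -0.0227 for the 54 genes and 0.0465 for all genes, and 31 of the 54 lay below the latter. The 6 genes that rose under each of these scalings were ORC4, GMNN, GINS4, RPA1, TK1 and CCNE2. Of the 11 genes that fell, 10 fell under each scaling, the exception being E2F2 under quantile normalization. None of the 30 genes that passed the test changed sign under any of the 17 alternatives. The counts also moved with single libraries. Without si-CTRL replicates 1, 2 and 3 in turn, 23, 11 and 15 of the 54 genes rose and 11, 9 and 10 fell, while 26.7%, 19.7% and 18.9% of all genes tested rose and 23.2%, 19.2% and 18.3% fell. Without si-NEK2 replicates 1, 2 and 3 in turn, 9, 8 and 10 of the 54 genes rose and 7, 6 and 8 fell, while 16.5%, 15.1% and 17.1% of all genes tested rose and 17.2%, 16.5% and 18.2% fell. Calls over all genes thus moved with the left-out library as well, and without si-NEK2 replicate 2 the share of the 54 genes that rose (14.8%) was below that of all genes.

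**Figure D3:**
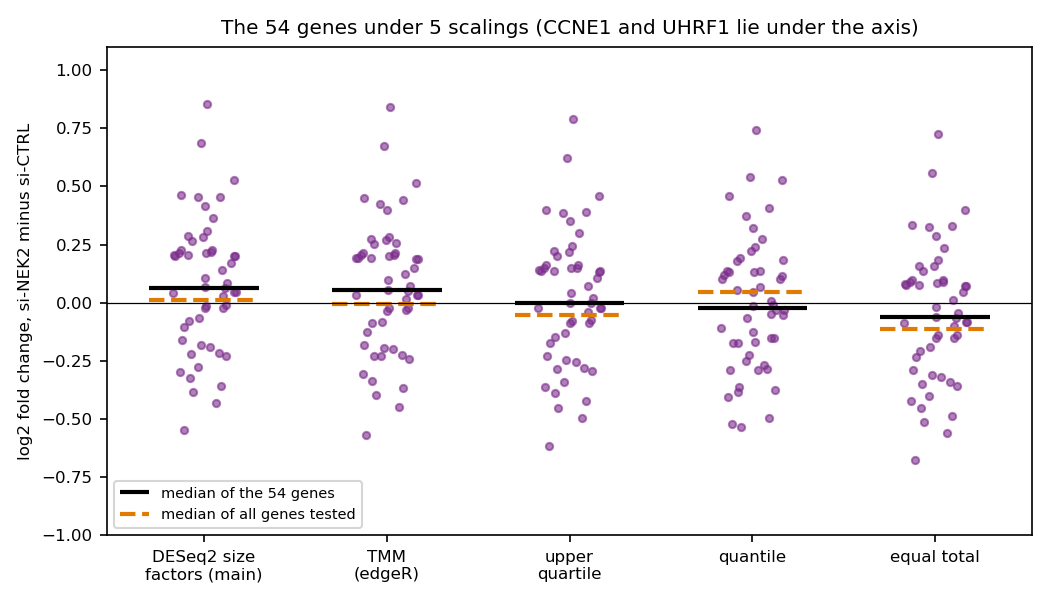
Log2 fold change of the 54 genes (points, y axis) under 5 scalings of the libraries (x axis); black lines are the median of the 54 genes and dashed lines the median of all genes tested, and CCNE1 and UHRF1 lie under the axis. The median of the 54 genes lies above that of all genes with the deposited size factors (0.0643) and with equal totals (-0.0639 against -0.115), and below it with quantile normalization (-0.0227 against 0.0465).

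The role of G1/S regulators, that is the cyclin E and E2F genes with UHRF1 placed beside them, held the deepest falls among the 54 genes. UHRF1 acts in DNA methylation, as given below, and is 1 of the 4 falls counted here. Of these 7 genes, 4 fell (57.1%) and 1 rose (14.3%). The counts of this and the other roles stand beside 21.3% of all genes tested that fell and 21.8% that rose. CCNE1 encodes cyclin E1, which activates CDK2 at the start of S phase (GSHG0014777, chromosome 19 from 30302901 to 30315224, hg19). It had 446, 356 and 415 normalized counts in si-CTRL replicates 1 to 3 and 62.2, 52.4 and 81.1 in si-NEK2 replicates 1 to 3. Every si-NEK2 library lay far below every si-CTRL library, with means of 406 ± 45.6 (SD, n = 3) in si-CTRL and 65.2 ± 14.6 (SD, n = 3) in si-NEK2. The log2 fold change was -2.64 (SE 0.18, limma adjusted p = 1.92e-05), which leaves 16.1% of the si-CTRL level.

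CCNE2 encodes cyclin E2, the partner gene of CCNE1, and moved the other way. It had 1437, 1355 and 1512 normalized counts in si-CTRL libraries and 2023, 2004 and 1906 in si-NEK2 libraries, without overlap. Its log2 fold change was 0.46 (SE 0.07, limma adjusted p = 0.00127). Per kilobase of the longest coding transcript in GENCODE, CCNE2 stood at 1.98, 2.33 and 2.23 times CCNE1 in si-CTRL replicates 1 to 3 and at 20.0, 23.5 and 14.4 times CCNE1 in si-NEK2 replicates 1 to 3. The most abundant cyclin E transcript was thus that of CCNE2 in every library, and the distance between the pair was wider in each si-NEK2 library. The transcript forms that these cells use were not known, so that these ratios hold only for the lengths named.

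UHRF1, which recruits the maintenance methyltransferase DNMT1 to newly replicated DNA, showed the smallest p-value among the 54 genes (GSHG0014489, chromosome 19 from 4903092 to 4962164, hg19). It had 16658, 15062 and 15165 normalized counts in si-CTRL libraries and 5379, 4792 and 4573 in si-NEK2 libraries. The groups were widely separated, with a log2 fold change of -1.67 (SE 0.08, limma adjusted p = 4.31e-06) and 31.4% of the si-CTRL level remaining. The deposited row also carries the microRNA gene MIR4747.

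Among the E2F genes, E2F8, an atypical member that represses E2F targets, had 1710, 1331 and 1345 normalized counts in si-CTRL libraries and 1000, 998 and 977 in si-NEK2 libraries. All si-NEK2 libraries were lower, and the log2 fold change of -0.55 (SE 0.11, limma adjusted p = 0.00322) was just under a fold of 1.5. E2F2, a transcriptional activator with few reads, also fell, with a log2 fold change of -0.43 (SE 0.14, limma adjusted p = 0.0355). E2F1, the best known activator, had 2785, 2600 and 2971 normalized counts in si-CTRL and 3006, 2748 and 2963 in si-NEK2 libraries, and the groups overlapped (log2 fold change 0.06, SE 0.08). E2F7, the closest relative of E2F8, had a log2 fold change of 0.03 (SE 0.07).

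**Figure D4:**
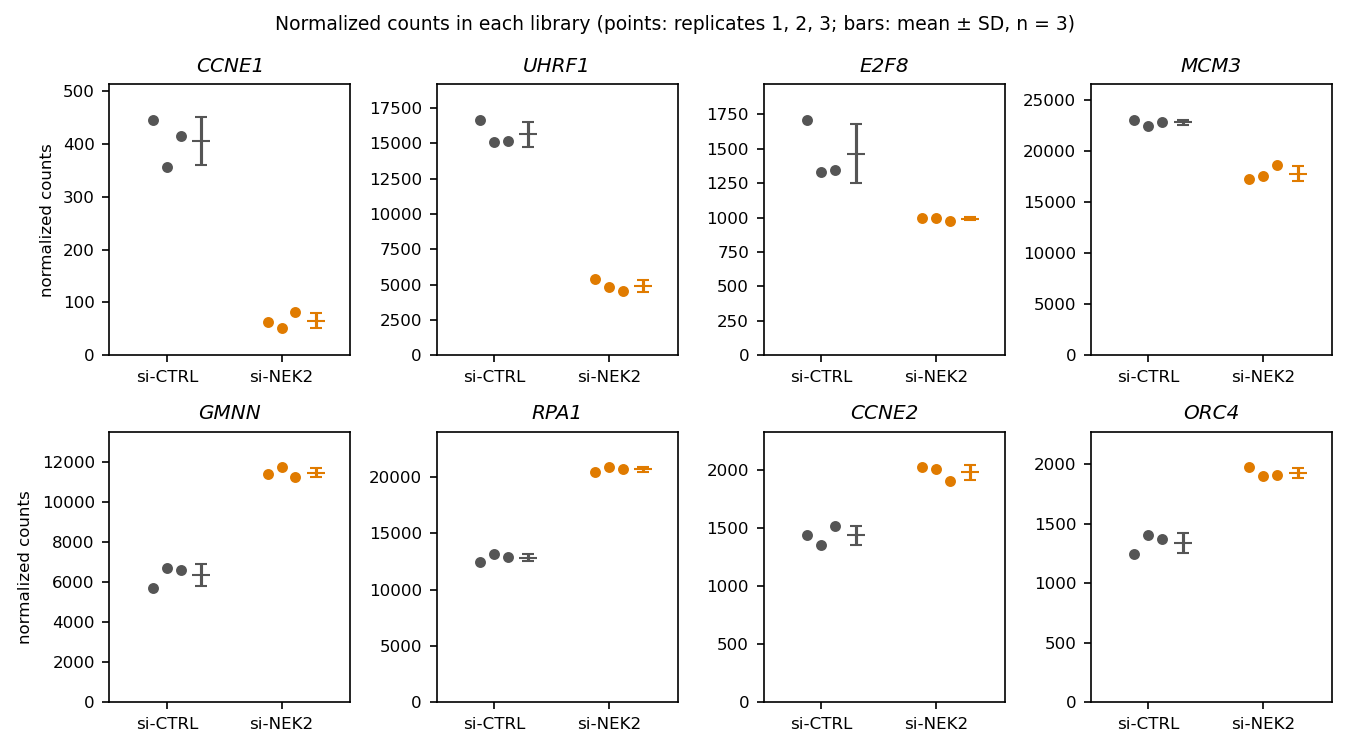
Normalized counts (y axis, from 0) of 8 genes in each si-CTRL and si-NEK2 library; points are replicates 1, 2 and 3 and bars the mean ± SD (n = 3). CCNE1, UHRF1, E2F8 and MCM3 are lower, and GMNN, RPA1, CCNE2 and ORC4 higher, in all si-NEK2 libraries.

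Of 9 genes of origin recognition and licensing, 5 rose and none fell with limma, nor with edgeR or DESeq2 (0 were lower at an unadjusted limma p up to 0.05). The largest change was that of GMNN, which encodes geminin, the inhibitor that binds CDT1 and prevents a second loading of MCM within a cycle (GSHG0025472, chromosome 6 from 24775159 to 24786323, hg19). It had 5715, 6725 and 6609 normalized counts in si-CTRL libraries and 11387, 11734 and 11259 in si-NEK2 libraries. The lowest si-NEK2 library was thus well above the highest si-CTRL library, and the fold change was 1.81 (log2 fold change 0.86, SE 0.08, limma adjusted p = 6.37e-05). It stayed between 0.73 and 0.90 on the log2 scale under all alternatives.

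CDT1, the loading factor that geminin inhibits, had 1455, 1356 and 1368 normalized counts in si-CTRL libraries. In si-NEK2 libraries it had 1602, 1143 and 830, so that the libraries of this group spread to both sides of the si-CTRL values. Its log2 fold change of -0.28 (SE 0.20, limma adjusted p = 0.298) was not separated from 0 and lay between -0.51 and -0.04 when each library was left out. Without si-NEK2 replicate 1, the high library, it was -0.51 (limma adjusted p = 0.0274) and passed. Per kilobase, GMNN stood at 10.1, 12.7 and 12.4 times CDT1 in si-CTRL libraries and at 18.2, 26.4 and 34.8 times CDT1 in si-NEK2 libraries. CDC6, the other loading factor, was almost level, with 12103, 12450 and 13324 normalized counts in si-CTRL and 12341, 12761 and 12473 in si-NEK2 libraries.

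The subunits of the origin recognition complex did not move alike. ORC4 rose from 1246, 1402 and 1368 normalized counts in si-CTRL libraries to 1975, 1898 and 1907 in si-NEK2 libraries (log2 fold change 0.53, SE 0.08, limma adjusted p = 0.000707). ORC2 (log2 fold change 0.20), ORC3 (0.23) and ORC5 (0.26) rose by less. The log2 fold change was 0.07 (SE 0.06) for ORC1, the subunit whose level is known to follow the cell cycle, and -0.06 (SE 0.10) for ORC6, and neither passed the test. Of the smaller rises, those of ORC2 and ORC3 were lost with each of the other 3 scalings, whereas that of ORC5 was lost with equal totals only.

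The 6 subunits of the MCM ring, which are bound together in equal numbers, split into 3 that fell and 3 that did not pass the test. MCM3 had 23016, 22457 and 22807 normalized counts in si-CTRL libraries and 17228, 17479 and 18558 in si-NEK2 libraries, a log2 fold change of -0.36 (SE 0.06, limma adjusted p = 0.00142). MCM5 fell by a similar amount, with a log2 fold change of -0.39 (SE 0.07, limma adjusted p = 0.00191), and MCM7 by less (-0.22, SE 0.06, limma adjusted p = 0.016). The groups did not overlap for any of these 3 genes. MCM2 had 17508, 18364 and 18948 normalized counts in si-CTRL and 20190, 18330 and 17931 in si-NEK2 libraries, and its groups overlapped (log2 fold change 0.04, SE 0.07). The log2 fold changes of MCM4 (-0.01) and MCM6 (-0.02), each with an SE of 0.06, were close to 0. MCM7 is the host gene of MIR25, MIR93 and MIR106B, and its span overlaps AP4M1.

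Of 8 genes that activate the helicase, 4 rose and 2 fell. The GINS complex has 4 subunits, of which GINS1, GINS3 and GINS4 rose and GINS2 did not pass the test (log2 fold change -0.11, SE 0.10). GINS4 had 1898, 2254 and 2272 normalized counts in si-CTRL and 2881, 3073 and 2837 in si-NEK2 libraries (log2 fold change 0.46, SE 0.09, limma adjusted p = 0.00314). GINS1 had 2777 normalized counts in si-CTRL replicate 1 against 3864 and 3927 in the other two, and 4886, 4936 and 4479 in si-NEK2 libraries. Its log2 fold change of 0.45 (SE 0.13, limma adjusted p = 0.0197) became 0.29 without si-CTRL replicate 1 (limma adjusted p = 0.00229), and the call was lost with equal total and quantile scaling.

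CDC45, which joins GINS on the ring, moved opposite to these subunits. Its level was 8866, 8007 and 8062 normalized counts in si-CTRL and 6615, 6495 and 7186 in si-NEK2 libraries, a log2 fold change of -0.30 (SE 0.07, limma adjusted p = 0.00932). The kinase gene CDC7 fell (log2 fold change -0.32, SE 0.08, limma adjusted p = 0.0113), while DBF4, the gene of its activator, rose (0.28, SE 0.10, limma adjusted p = 0.04). The rise of DBF4 was lost with each of the other 3 scalings. MCM10, a scaffold between helicase and polymerase, had a log2 fold change of -0.18 (SE 0.08, limma adjusted p = 0.0974), with no overlap between the groups. MCM10 fell with upper quartile and with equal total scaling (-0.31, limma adjusted p = 0.0124 with the latter), but not with quantile scaling.

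The replicative polymerases were the most even of the 7 roles, since 1 of 9 genes passed the test and 9 of 9 stayed within a fold of 1.25. That gene was POLE2, a subunit of the leading strand polymerase, with 3919, 3837 and 3979 normalized counts in si-CTRL and 4453, 4670 and 4500 in si-NEK2 libraries (log2 fold change 0.22, SE 0.06, limma adjusted p = 0.0195). The groups did not overlap, but the call was lost after each of the other scalings in limma. The catalytic subunits had log2 fold changes of 0.04 for POLA1, -0.08 for POLD1 and 0.11 for POLE. The primase subunits lay apart from each other, with log2 fold changes of -0.21 (SE 0.08, limma adjusted p = 0.0572) for PRIM1 and 0.31 (SE 0.12, limma adjusted p = 0.0651) for PRIM2, and neither passed. PRIM1 passed with edgeR, DESeq2 and each of the other 3 scalings.

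Among 11 genes of the clamp, clamp loader, single-strand binding protein and Okazaki fragment enzymes, 6 rose and 1 fell. RPA1, the large subunit of the single-strand binding protein, changed most (GSHG0012115, chromosome 17 from 1733273 to 1802848, hg19). It had 12500, 13170 and 12917 normalized counts in si-CTRL and 20477, 20898 and 20738 in si-NEK2 libraries, and the libraries within a group differed little. The fold change was 1.61 (log2 fold change 0.69, SE 0.06, limma adjusted p = 4.49e-05), and it fell under 1.5 with equal total (0.56 on the log2 scale) and quantile scaling (0.54), where the gene still rose. RPA2, the middle subunit, rose by less (log2 fold change 0.20, SE 0.07, limma adjusted p = 0.0349).

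RPA3, the small subunit, could not be read in the same way. It had 2640 normalized counts in si-CTRL replicate 1 against 6175 and 5642 in the other two, and 5822, 6068 and 5566 in si-NEK2 libraries. Its log2 fold change of 0.37 (SE 0.27, limma adjusted p = 0.31) became -0.02 without si-CTRL replicate 1. This library had the fewest recovered reads (52625492). Its log2 value differed by more than 0.3 from the mean of the rest of its group for 8 of the 54 genes. Each of the other libraries did so for 1 to 3 genes. How many of all genes tested stood apart in this way was not counted. Si-CTRL replicate 1 lay lower for RPA3, GINS1, PRIM2 and RFC3 and higher for POLD2, E2F8, GINS2 and DBF4.

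PCNA, the sliding clamp and a common marker of proliferation, had 17701, 18540 and 18897 normalized counts in si-CTRL libraries and 21423, 21476 and 21553 in si-NEK2 libraries. Every si-NEK2 library was higher, by a log2 fold change of 0.23 (SE 0.06, limma adjusted p = 0.0122) that lost its call with each of the other 3 scalings. The clamp loader genes RFC2 (0.22), RFC4 (0.21) and RFC5 (0.21) rose by log2 fold changes of about the same size and also lost their calls with these scalings, while RFC1 (0.14, SE 0.09) and RFC3 (0.17, SE 0.10) did not pass. FEN1, the nuclease that trims Okazaki fragments, had a log2 fold change of 0.08 (SE 0.06), and LIG1, the ligase that joins them, fell (-0.19, SE 0.06, limma adjusted p = 0.0404).

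The 4 genes of deoxynucleotide supply gave 2 rises and 1 fall. TK1, the salvage kinase of thymidine, had 5143, 6642 and 5646 normalized counts in si-CTRL and 8261, 7403 and 7500 in si-NEK2 libraries (log2 fold change 0.42, SE 0.10, limma adjusted p = 0.00855). RRM1 and RRM2 encode the subunits of ribonucleotide reductase and went in opposite directions. RRM2 had 16492, 14854 and 14762 normalized counts in si-CTRL and 13205, 13497 and 12575 in si-NEK2 libraries (log2 fold change -0.23, SE 0.07, limma adjusted p = 0.0235), and RRM1 had a log2 fold change of 0.20 (SE 0.06, limma adjusted p = 0.02) and lost its call with the other 3 scalings. TYMS, the target of fluorouracil, had 6582, 5990 and 5922 normalized counts in si-CTRL and 5939, 5999 and 6249 in si-NEK2 libraries, which overlap (log2 fold change -0.02, SE 0.07). The span of TYMS overlaps ENOSF1 and TYMSOS on the chromosome.

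The calls that held under every one of the 17 alternatives were those of 11 genes. They were the rises of GMNN, RPA1, ORC4, CCNE2, GINS4 and TK1 and the falls of CCNE1, UHRF1, E2F8, MCM5 and MCM3. The calls of ORC2, ORC3, DBF4, POLE2, RFC2, RFC4, RFC5, RPA2, RRM1, RRM2, LIG1 and E2F2 were each lost without si-NEK2 replicate 1, 2 or 3, whichever was left out. Those of GINS1 and MCM7 were lost without si-NEK2 replicate 1 or 2, that of CDC7 without replicate 1, and those of CDC45 and PCNA without replicate 2. Without si-CTRL replicate 2, 10 calls were lost, without replicate 3, 6, and without replicate 1, that of E2F2. The spans of 9 of the 54 genes, among them ORC4, CCNE2, MCM7, DBF4 and LIG1, overlap another expressed gene, and whether reads were counted by strand is not stated in the sources used here.

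The promoters of these genes were searched for short sequences, which the choice of members did not use. RefSeq promoters from 250 bases before to 50 bases after the gene start (GRCh38.p14) were at hand for 46 of the 54 genes. An E2F-type sequence, that is TTTGGCGC, TTTGCCGC, TTTCGCGC or TTTCCCGC on either strand, was present in 21 of these (45.7%), compared with 5.17% of 11110 promoters of genes tested and 3.33% of 27305 promoters in all. The sequence was found in 5 of 16 promoters of genes that rose, 5 of 9 of genes that fell and 11 of 21 of the others, so that it was present in some promoters of each class. The 5 that rose, ORC3, GINS1, GINS3, POLE2 and PCNA, each lost the call with equal totals. Of the genes that rose under each scaling, ORC4, GMNN, RPA1 and TK1 held no match, and GINS4 and CCNE2 had no promoter at hand. Of those that fell under each scaling, UHRF1, MCM3, MCM7 and LIG1 carry it, whereas CDC45, CDC7, RRM2 and CCNE1 do not. For MCM5 and E2F8, which also fell under each scaling, no promoter was at hand. CCAAT, on either strand, was found in 25 of the 46 promoters (54.3%) and in 36.3% of promoters of genes tested. The CHR-type sequence TTTGAA was found in 2 of the 46 (4.35%) and in 9.74%. None of the 6 sequences searched contains another, and a match is a description of the letters only.

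The stretches of 30 bases around the first E2F-type sequence are shown for the 10 genes that rose or fell and carry it, with the match in capitals, to let genes of opposite direction be compared. Each is read 5′ to 3′ on the strand of its gene, so that a match on the opposite strand appears as its reverse complement. The genes that fell are given first and those that rose after them.
UHRF1: gccgagttttcGCGGGAAAaaaatcagagc
E2F2: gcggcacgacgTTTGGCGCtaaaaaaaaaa
MCM3: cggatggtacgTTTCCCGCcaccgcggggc
MCM7: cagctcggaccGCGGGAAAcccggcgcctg
LIG1: acttcacccctTTTCCCGCcctcctcccat
PCNA: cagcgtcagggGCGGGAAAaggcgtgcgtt
POLE2: ctgcggcggtgGCGCCAAAtcgcaaatatg
GINS1: agctttgttcgGCGCCAAAgcgcggagcgg
GINS3: cgtccccgggcGCGGGAAAcgagtttcaat
ORC3: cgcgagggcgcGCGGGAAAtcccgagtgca
The stretch of UHRF1 lies at chr19:4909476-4909505 on the plus strand, with the match starting 14 bases before the gene start, and that of PCNA at chr20:5126663-5126692 on the minus strand, with the match 59 bases before the start. Both carry GCGGGAAA, the reverse complement of TTTCCCGC. UHRF1 fell to 31.4% of its si-CTRL level, and PCNA rose with the deposited scaling but not with the other scalings tried in limma. Whether the sequence bears on either change was not tested. The others lie at chr1:23531257-23531286 (E2F2, minus), chr6:52284898-52284927 (MCM3, minus), chr7:100101566-100101595 (MCM7, minus), chr19:48170440-48170469 (LIG1, minus), chr14:49688201-49688230 (POLE2, minus), chr20:25407667-25407696 (GINS1, plus), chr16:58392455-58392484 (GINS3, plus) and chr6:87590112-87590141 (ORC3, plus).

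Further genes of the same processes were taken from 4 lists. Their counts stand beside 21.8% of all genes tested that rose and 21.3% that fell. Of 33 further replication factors, 12 rose (36.4%) and 4 fell (12.1%), with a median of 0.14 on the log2 scale, against 0.0119 for all genes tested. With quantile normalization their median (0.0352) lay below that of all genes (0.0465). NASP, a histone chaperone, rose (log2 fold change 0.50, limma adjusted p = 0.000243), as did DNA2, a nuclease and helicase of Okazaki fragments (0.63, limma adjusted p = 0.000244). TIPIN, which protects stalled forks with TIMELESS, fell (-0.65, limma adjusted p = 0.000392), and so did POLE3, a histone-fold subunit of polymerase epsilon (-0.60, limma adjusted p = 0.000431), whose span overlaps 7 other expressed genes. These 4 genes kept their calls after scaling to equal totals.

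Of 11 further genes of nucleotide metabolism, 2 rose (18.2%) and 3 fell (27.3%), against 21.8% and 21.3% of all genes tested. CTPS1, which makes CTP, fell by a log2 fold change of -0.41 (limma adjusted p = 0.00124). The kinase DGUOK (0.33) and the deaminase DCTD (0.26) rose, with limma adjusted p = 0.019 and 0.0245, and both calls were lost after scaling to equal totals. The median was 0.0848.

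Of 22 genes of G1/S control, 8 rose (36.4%) and 5 fell (22.7%), against 21.8% and 21.3% of all genes tested, with a median of 0.0206. CDKN1A, the p21 inhibitor of cyclin E and CDK2, fell from 5831 ± 265 (SD, n = 3) to 1859 ± 18.8 (SD, n = 3) normalized counts (log2 fold change -1.65, limma adjusted p = 2.39e-06). CCND1, the gene of cyclin D1, fell as well (-1.16, limma adjusted p = 6.08e-05). SKP2, a subunit of the ubiquitin ligase that removes p27, rose (0.63, limma adjusted p = 0.000142), and CCNA2, the cyclin of S and G2 phase, rose too (0.56, limma adjusted p = 0.00029). Of 26 genes of G2 phase and mitosis, 14 rose (53.8%) and 2 fell (7.69%), with a median of 0.21. BUB1, a spindle checkpoint kinase (0.66, limma adjusted p = 8.5e-05), and ECT2, a regulator of cytokinesis (0.42, limma adjusted p = 0.000535), rose, while the spindle factor TPX2 (-0.40, limma adjusted p = 0.00667) and the kinase PLK1 (-0.23, limma adjusted p = 0.0366) fell, the latter without a call when one of the libraries was left out (highest limma adjusted p = 0.136). With equal totals, 6 of the 26 genes rose and 5 fell, against 13.8% and 28.1% of all genes tested. The median of the 26 genes was then 0.0824, against -0.115 for all genes tested.

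**Figure D5:**
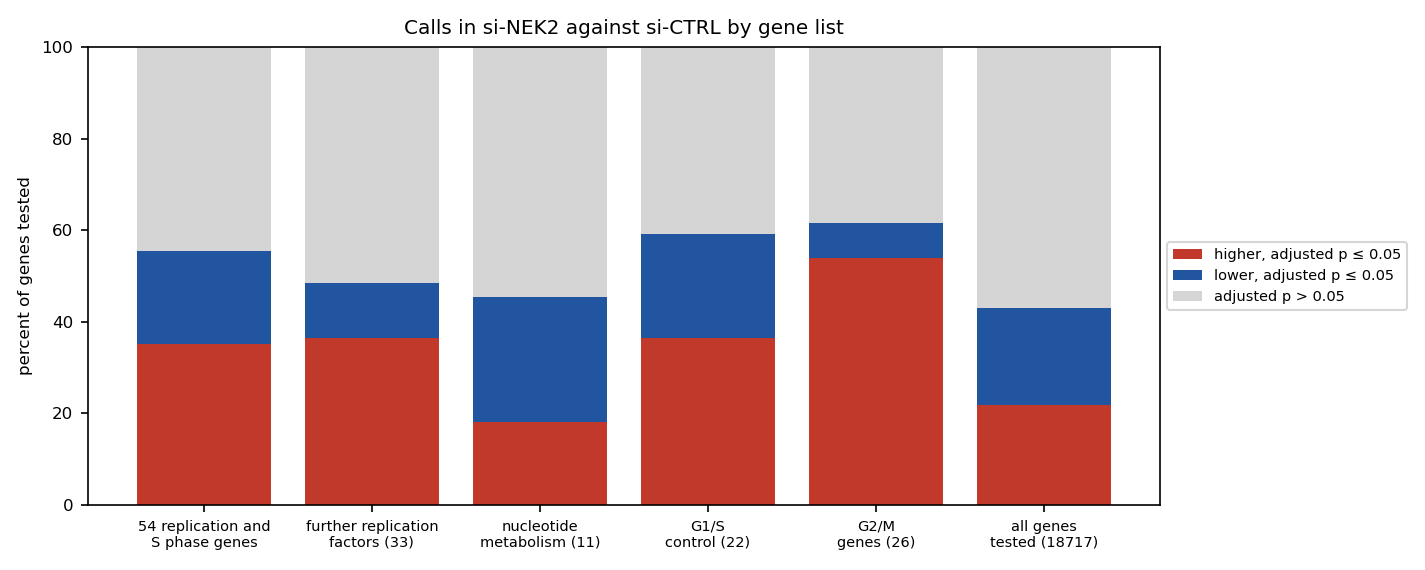
Percent of genes (y axis) that rose (red), fell (blue) or had an adjusted p over 0.05 (grey) in si-NEK2 against si-CTRL libraries, for the 54 genes, the 4 further lists and all 18717 genes tested (x axis, number of genes in parentheses). The share that rose is 35.2% for the 54 genes, 53.8% for the G2/M genes and 21.8% for all genes tested.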

How the data were processed

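RNA of 3 si-CTRL and 3 si-NEK2 libraries was sequenced. The authors deposited a signal per gene, in which reads were divided by a size factor from DESeq2, annotated with FAST DB on hg19. The submitters' processing notes name STAR 2.4.0, SAMtools, Picard, FastQC and DESeq2. The gene counter and its strand setting are not given in the sources used here. Whole reads were recovered for 100% of values (tolerance 0.02).

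Libraries were grouped by the sample labels. These do not say that replicates came from separate cultures, so that p-values measure the spread between libraries only. Genes averaging 10 or more normalized counts (18717) were tested on log2(value + 1) with limma 3.58.1 in R 4.3.3 (lmFit, eBayes with trend) and Benjamini-Hochberg adjustment. On this scale fold changes of genes at low counts come out too small. The log2 fold change is si-NEK2 minus si-CTRL.

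The alternatives changed the pseudocount (0.1 or 5), the filter (none, or 50), the scaling (quantile, equal total or upper quartile), the trend and the replicate block, or left out each library. On recovered reads, edgeR 4.0.16 (quasi-likelihood, TMM) called 8004 genes and DESeq2 1.42.0 called 8215. Fits were checked on simulated data.

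Values in every library are given for genes regulated at the study's thresholds, the gene with the smallest p in each role and 10 genes fixed by name. ORC4, GINS1, CDC45, E2F8 and RPA3 were chosen after their values were seen. From each further list, the 2 genes with the smallest p in each direction are named, apart from 1 that is not reported here. The members and lists were chosen with earlier results of these data known. Transcript lengths are from GENCODE 29.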

Additional observations from a re-analysis of the deposited data

How the results depend on the processing

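None of the 30 members that passed changed sign under the 17 alternatives, but numbers of rises moved with the scaling. With upper quartile scaling, 9 members rose (median log2 fold change -0.0016), as did 7 further replication factors (median 0.0773) and 0 genes of nucleotide metabolism, with medians of -0.0453 for G1/S control and 0.145 for G2/M genes. MCM2 (-0.025), POLA1 (-0.022), POLA2 (-0.022), E2F1 (-0.0037) and E2F7 (-0.040) changed sign.

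With equal total scaling, 6 members rose (median -0.0639) and 1 was regulated up. There, 5 further replication factors (median 0.015), 0 genes of nucleotide metabolism (median -0.0433), 5 of G1/S control (median -0.108) and 6 G2/M genes rose, and 5 G2/M genes fell (median 0.0824). Of all genes tested, 13.8% then rose and 28.1% fell (median -0.115). ORC1 (-0.062), MCM2 (-0.087), POLA1 (-0.084), POLA2 (-0.084), POLE (-0.020), FEN1 (-0.044), E2F1 (-0.066) and E2F7 (-0.10) changed sign.

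With quantile scaling, 8 members rose (median -0.0227) and 1 was regulated up, 1 gene of nucleotide metabolism and 7 G2/M genes rose, and the medians were 0.0352 for further replication factors, -0.0341 for G1/S control and 0.0835 for G2/M genes. The median of all genes was then 0.0465, above those of the members, the further replication factors and G1/S control, whereas with the deposited scaling it was 0.0119 and below them. ORC1 (-0.016), MCM2 (-0.11), POLA1 (-0.034), POLA2 (-0.053), FEN1 (-0.030), E2F1 (-0.0090) and E2F7 (-0.049) changed sign.

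Without a trend, 11 members, 6 further replication factors, 0 genes of nucleotide metabolism and 9 G2/M genes rose, and 1 G2/M gene fell, as did 1 with no filter. The deviations of libraries with the same replicate number correlated at -0.091, 0.0469 and -0.147, so that no pairing by number was seen. Whether libraries of the same number were handled together is not stated in the sample labels, and these correlations cannot tell. With a replicate block, 10 members rose and 7 fell, 1 gene of nucleotide metabolism rose and 1 G2/M gene fell.

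Without one library at a time, 8 to 23 members rose and 6 to 11 fell (median 0.0587 to 0.0868). In these fits 6 to 15 further replication factors rose and 2 to 5 fell (median 0.13 to 0.179), 0 to 2 genes of nucleotide metabolism rose (median -0.0449 to 0.115), and 9 to 17 G2/M genes rose and 1 to 3 fell. Single members that changed sign ranged from -0.16 to 0.0020 (ORC6), -0.040 to 0.029 (CDC6), -0.011 to 0.075 (MCM2), -0.029 to 0.019 (MCM4), -0.050 to 0.0046 (MCM6), -0.19 to 0.0086 (GINS2), -0.010 to 0.10 (POLA2), -0.17 to 0.029 (POLD1), -0.022 to 0.59 (RPA3), -0.051 to 0.025 (TYMS) and -0.010 to 0.073 (E2F7). The causes were not tested. With 3 libraries a group, CDT1 (830 to 1602 normalized counts in si-NEK2) and RPA3 (2640 to 6175 in si-CTRL) spread far beyond counting error at this depth.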
